A study of Mus musculus with 147 samples.

Results

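Peroxiredoxins and their partner antioxidant enzymes were followed in single renin cells of the mouse kidney with and without the renin gene. The 10 members were chosen by symbol from the gene column of the deposited tables: Prdx1 to Prdx6, Txn1, Txnrd1, Hmox1 and Nqo1. All 10 of 10 symbols were found among 35438 genes, each once. The cells were YFP-positive cells sorted from kidneys of adult C57BL/6 mice and captured singly in the wells of a Fluidigm C1 chip, a microfluidic device in which each well holds 1 cell. The 51 WT renin cells came from Ren1c+/+ Ren1c-YFP mice and the 96 Renin-null cells from Ren1c-/- Ren1c-YFP mice, in which the renin gene is deleted. Both genotypes carried the Ren1c-YFP transgene, so YFP marks any cell in which the regulatory sequence of the renin gene is active, whether or not it makes renin. Per the methods of the study, 4 WT mice gave 1 capture and 12 Renin-null mice gave 4 captures, and male and female mice were used. Mice that lacked the renin gene had been given saline under the skin in the first days of life so that they survived, which the WT mice are not stated to have had. The labels name no mouse and no capture for a cell. Without them a genotype counts as 1 sample, which allows no test, and every interval below covers counting error only, with PCR reads that are not independent molecules.

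Peroxiredoxins reduce hydrogen peroxide with a reactive cysteine and are reset by thioredoxin, which thioredoxin reductase in turn recharges with NADPH. Prdx1, Prdx2 and Prdx6 work mainly in the cytosol, Prdx3 and Prdx5 in mitochondria, with part of Prdx5 elsewhere in the cell, and Prdx4 in the endoplasmic reticulum, where secreted proteins such as renin are folded. Heme oxygenase 1 (Hmox1) and the quinone reductase Nqo1 are classical targets of the transcription factor Nrf2, which binds antioxidant response elements and is held in check by Keap1. Txn1, Txnrd1 and Prdx1 are known Nrf2 targets as well.

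The wells differed in depth and in RNA makeup. A WT well held between 26401 and 17124854 counts (median 1525972) and a Renin-null well between 3628 and 14505243 (median 4107950). Counts of the 13 mitochondrially encoded genes made up a median of 60.4% of a WT well and 12.4% of a Renin-null well. Of the WT wells 34 of 51 lay above a mitochondrial share of 25%, against 36 of 96 Renin-null wells. These are called high mitochondrial wells and the others low mitochondrial wells below. The Renin-null cells formed a pair of libraries of 48 wells each, YFP1 and YFP2 in the labels. In 4 pairs of Renin-null wells the profiles were nearly identical (Pearson r of 0.974 to 0.987, next pair 0.896), and 3 of these pairs joined a well of YFP1 to a well of YFP2. With each pair counted once, the median log2 ratio of the members between genotypes, given below as 0.76, was 0.78.

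Ren1, the deleted gene, was counted in 51 of 51 WT wells, from 563 to 313965 CPM (counts scaled to a total of 1000000 per well, median 21402), and made up 9.60% of all WT counts. In the Renin-null wells it totalled 54 counts over 16 of 96 wells. The mural markers of the renin lineage were present in both genotypes, with smooth muscle markers at a summed 12642 CPM (WT) and 13679.6 CPM (Renin-null), and pericyte markers at 12404 and 14807 CPM, led by Rgs5. Other kidney cell types were also counted in the Renin-null wells: proximal tubule markers stood at 929.5 CPM against 56.1 CPM in WT, podocyte markers at 391 against 2.89 CPM and erythroid markers at 435 against 36.9 CPM. The podocyte and erythroid counts lay mostly in YFP2, at 705.7 and 791 CPM, against 14.4 and 9.13 CPM in YFP1. In the WT wells Podxl of the podocyte list, Hba-a1, Hba-a2 and Hbb-bt of the erythroid list, and Cdh5 and Plvap of the endothelial list were at 0 counts. Macrophage markers were low in both, at 0.985 CPM (WT) and 4.36 CPM (Renin-null), led by Ptprc. Endothelial markers, led by Emcn, stood at 30.8 and 214 CPM, fibroblast markers, led by Col1a2, at 171 and 625 CPM, collecting duct markers, led by Fxyd4, at 23.8 and 83.7 CPM, and loop and distal tubule markers, led by Slc12a1, at 0.131 and 129 CPM. Genes of the response to dissociation, led by Fos, were at similar levels, 7342 and 7751 CPM.

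Promoter sequences in RefSeq (GRCm38.p6, 250 bases before to 50 after the gene start) were found for 8 of the 10 members, 10 promoters in all, and Prdx6 and Hmox1 did not match. The core of the antioxidant response element, TGACNNNGC, was searched on both strands. It was held by 2 of these 10 promoters, of Prdx1 and of Txnrd1, the reductase of thioredoxin, and both are shown because they carry the letters of the Nrf2 motif. Of all 32851 promoters of this length 12.4% hold the motif, so its presence in 2 of 10 is a description and not a site. The Prdx1 promoter lies at chr4:116685349-116685648 on the plus strand and the second Txnrd1 promoter at chr10:82858956-82859255 on the plus strand. Capitals mark the motif, which in both reads on the opposite strand, as TGACTCAGC starting 133 bases before the gene start in Prdx1 and as TGACAAAGC starting 92 bases before it in Txnrd1.
Prdx1: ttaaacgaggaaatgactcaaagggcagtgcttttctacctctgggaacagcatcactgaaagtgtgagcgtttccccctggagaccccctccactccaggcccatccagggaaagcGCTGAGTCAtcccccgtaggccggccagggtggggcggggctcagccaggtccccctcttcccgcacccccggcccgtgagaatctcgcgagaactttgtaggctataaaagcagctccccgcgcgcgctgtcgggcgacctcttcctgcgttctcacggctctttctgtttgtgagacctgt
Txnrd1: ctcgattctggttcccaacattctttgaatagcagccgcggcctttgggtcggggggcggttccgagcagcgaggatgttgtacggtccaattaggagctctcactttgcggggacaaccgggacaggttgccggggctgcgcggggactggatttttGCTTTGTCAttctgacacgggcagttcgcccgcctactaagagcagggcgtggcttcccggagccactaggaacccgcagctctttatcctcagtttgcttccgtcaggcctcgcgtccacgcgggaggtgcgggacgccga

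Txn1, Txnrd1, Prdx6 and, at levels close to 0, Hmox1 had summed levels at least 2-fold higher in the Renin-null wells. Prdx1 had the highest summed level of the members in both genotypes. Prdx4 was the peroxiredoxin counted in nearly every WT well, and in the median WT well it stood above Prdx1, at 31.6 against 7.34 CPM. These CPM are not scaled by gene length. The order held in high mitochondrial WT wells only: in the low mitochondrial ones the median was 2.93 CPM for Prdx4 and 282 CPM for Prdx1. Over summed counts, 4 of the 10 members were at least 2-fold higher in the Renin-null wells (Prdx6, Txn1, Txnrd1 and Hmox1), where 52.4% of the 18720 genes with over 3 counts in either genotype were, and 0 of 10 were at least 2-fold lower, where 18.5% were. The median log2 ratio of the members was 0.76 and that of all these genes 1.17. Without the mitochondrial counts in the total, the median of the members was 0.60 and that of all genes 1.01, with 4 members at least 2-fold higher (50.1% of genes) and 0 lower (19.9%). Txn1 and Prdx4 are in the list of differential genes that the study drew from these same cells, so their differences here are not independent evidence.

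**Figure D1:**
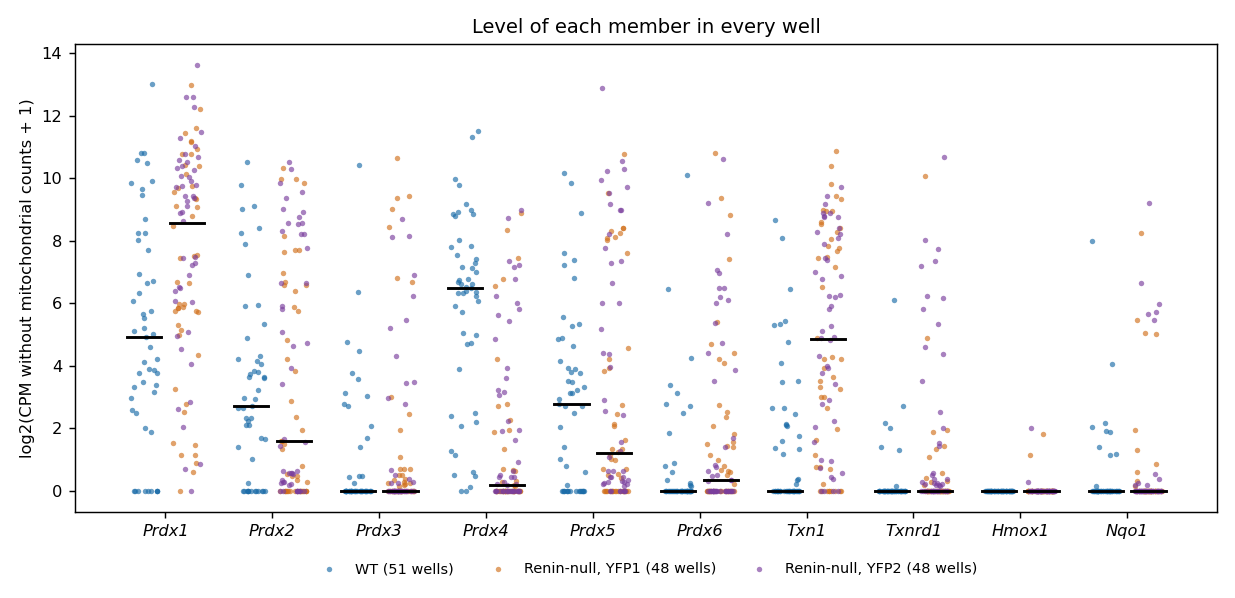
Level of the 10 members in each well, as log2(CPM without mitochondrial counts + 1), with 51 WT wells left and 96 Renin-null wells right in each pair. Points are wells and black bars medians. The WT median of Prdx4 (88.7 CPM without mitochondrial counts) lies above that of Prdx1 (29.2), while in Renin-null wells Prdx1 (374) is far above Prdx4 (0.136). In the low mitochondrial WT wells alone the median of Prdx4 (3.14) is far below that of Prdx1 (303).

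Prdx1, the main cytosolic peroxiredoxin (chr4:116685544-116700822, GRCm38), was counted in 42 of 51 WT wells and 94 of 96 Renin-null wells. Its level ran from 0 to 2286 CPM in WT (median 7.34) and from 0 to 7712 CPM in Renin-null wells (median 278). The ranges overlapped fully, and the lowest wells of both genotypes were at 0. Its summed levels were 535 CPM (WT) and 989 CPM (Renin-null), a log2 ratio of 0.89 (0.88 to 0.90). It was 0.87 against YFP1 and 0.90 against YFP2. Of the Renin-null counts of Prdx1, 70.9% lay in 45 of the 96 wells in which the listed tubule and collecting duct markers together reached 100 CPM, wells that held 44.5% of all Renin-null counts. With these 45 wells and 7 such WT wells left out, a setting chosen after seeing the data, Prdx1 was at 497 CPM (WT) and 517 CPM (Renin-null), a log2 ratio of 0.06. Processed copies of Prdx1 (Gm21399, Gm7204 and Gm15974), which reads could be shared with, held 9 WT and 153 Renin-null counts in all, at most 0.0388% of those of Prdx1.

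Prdx2, the second cytosolic peroxiredoxin and an abundant protein of red blood cells (chr8:84969587-84974834), differed little between genotypes in its sum over all wells. It was counted in 38 of 51 WT wells (0 to 1371 CPM, median 1.95) and 70 of 96 Renin-null wells (0 to 1383 CPM, median 1.30). The highest wells of both genotypes were at nearly the same level. The sums were 215 and 183 CPM, a log2 ratio of -0.23 (-0.25 to -0.22), and YFP1 and YFP2 gave -0.24 and -0.23. The ratio was -0.51 in low mitochondrial wells, where the median well was at 59.5 CPM (WT) and 4.24 CPM (Renin-null) without mitochondrial counts. In high mitochondrial wells it was 3.96, from 106 WT and 2049 Renin-null counts, 69.9% of the latter in 1 well. Its sign turned in 5 of 14 alternatives. The erythroid marker sums were 9.13 CPM in YFP1 and 791 CPM in YFP2, and their part in the Prdx2 level was not tested. Prdx6, the peroxiredoxin with a single reactive cysteine and a phospholipase activity (chr1:161240112-161251219), was higher in sum in the Renin-null wells, 135 against 38.0 CPM, a log2 ratio of 1.83 (1.80 to 1.87) or 3.56-fold. Both levels rested on few wells. A single WT well held 87.5% of the WT counts, and 2 Renin-null wells, one of each library, held 76.9% of the Renin-null counts. It reached 10 CPM in 2 of 51 WT wells and in 19 of 96 Renin-null wells. The ratio was 2.27 against YFP1, 1.34 against YFP2 and 2.30 with the tubule-marker wells left out.

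The mitochondrial peroxiredoxins showed no common direction. Prdx3 (chr19:60864051-60874556) was counted in 17 of 51 WT wells (0 to 1351 CPM, median 0) and 42 of 96 Renin-null wells (0 to 1497 CPM, median 0). Its sums were 58.6 and 63.6 CPM, a log2 ratio of 0.12 (0.09 to 0.15). One WT well held 90.2% of the WT counts, and the ratio was 0.92 against YFP1 and -1.30 against YFP2, so the libraries of one genotype lay on opposite sides of WT. Prdx5 (chr19:6906697-6910106) was counted in 35 of 51 WT wells (0 to 840.0 CPM, median 2.16) and 71 of 96 Renin-null wells (0 to 1767 CPM, median 0.925). The sums were 111 and 144 CPM, a log2 ratio of 0.38 (0.36 to 0.40), with 0.62 against YFP1 and 0.14 against YFP2. The median well was thus lower and the sum higher in Renin-null cells. A single WT well held 43.2% of the WT counts of Prdx5, and 1 YFP1 well held 51.2% of those of YFP1. Wells with tubule markers held 79.6% of the Renin-null Prdx5 counts, and without them Prdx5 stood at 52.96 CPM against 116 CPM in WT, a log2 ratio of -1.13.

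Prdx4, which reduces peroxide in the endoplasmic reticulum (chrX:155323918-155340754), was counted in more WT than Renin-null wells, with the wider gap in the high mitochondrial wells. It was counted in 49 of 51 WT wells (0 to 2210 CPM, median 31.6) and 50 of 96 Renin-null wells (0 to 440.0 CPM, median 0.129). It reached 10 CPM in 38 of 51 WT wells, 74.5% (exact 95% interval 60.4 to 85.7), and in 18 of 96 Renin-null wells, 18.8% (11.5 to 28.0). After thinning each well to 62000 counts, which left out 2 WT and 13 Renin-null wells, it was seen in 59.2% of WT and 20.5% of Renin-null wells. Among low mitochondrial wells it was counted in 15 of 17 WT (88.2%) and 40 of 60 Renin-null wells (66.7%) and reached 10 CPM in 41.2% and 26.7%. Thinned, the shares of these wells were close, 26.7% (4 of 15, 7.79 to 55.1) in WT and 26.3% (15 of 57, 15.5 to 39.7) in Renin-null wells, while among high mitochondrial wells they were 73.5% (25 of 34) and 7.69% (2 of 26). The summed levels differed less, 63.2 and 38.3 CPM, a log2 ratio of -0.72 (-0.76 to -0.69), with -1.54 against YFP1 and -0.28 against YFP2. A single WT well held 55.9% of the WT counts of Prdx4 and, with the highest well of each genotype left out, the log2 ratio was 0.10. The sum and the typical well therefore gave different pictures of this gene.

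Over summed counts, thioredoxin and its reductase were higher in the Renin-null wells, the reductase in YFP2 but not in YFP1. Among all genes with a genotype ratio, 64.8% had a lower ratio than Txn1 and 63.9% a lower one than Txnrd1. Txn1, which carries electrons to the peroxiredoxins (chr4:57943373-57956411), was counted in 24 of 51 WT wells (0 to 370.3 CPM, median 0) and 83 of 96 Renin-null wells (0 to 1764 CPM, median 16.8). It reached 10 CPM in 8 WT wells, 15.7% (7.02 to 28.6), and in 52 Renin-null wells, 54.2% (43.7 to 64.4). The sums were 42.0 and 225 CPM, a log2 ratio of 2.42 (2.39 to 2.46) or 5.36-fold. The highest Renin-null well held 16.7% of the counts and the 5 highest 45.4%, against 11.0% and 34.6% for Prdx1. In WT the 2 highest wells held 70.7% of the Txn1 counts. The ratio was 2.82 against YFP1, 1.98 against YFP2, 2.85 with the tubule-marker wells left out and 2.12 in low mitochondrial wells alone. Txnrd1, which reduces thioredoxin with NADPH (chr10:82833951-82897712), was sparse, in 7 of 51 WT wells (0 to 61.1 CPM) and 40 of 96 Renin-null wells (0 to 1039.6 CPM), with medians of 0 in both. The sums were 3.10 and 15.5 CPM, a log2 ratio of 2.32 (2.20 to 2.44). It rested on 1 library: YFP2 gave 3.10 and YFP1 -0.54, from 5786 and 387 counts. A single WT well held 88.4% of the WT counts of Txnrd1.

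The Nrf2 targets Hmox1 and Nqo1 were low. Hmox1, which breaks down heme (chr8:75093621-75100589), had 0 counts in the 51 WT wells, which allows a share of wells with a count of up to 5.88% (3 of 51 wells, with an exact 95% limit of 6.98%) and a level of up to 0.0152 CPM (3 counts over the group), and 38 counts in 4 of 96 Renin-null wells, 0.0953 CPM. Against the floor of 3 counts over the WT group this is at least 6.29-fold higher, and the fold is that of a gene close to 0 in both genotypes. No well reached 10 CPM. Nqo1, which reduces quinones without forming radicals (chr8:107388225-107403206), was counted in 10 of 51 WT wells (0 to 229 CPM) and 21 of 96 Renin-null wells (0 to 559.5 CPM), with medians of 0. Its sums were 10.4 and 16.2 CPM, a log2 ratio of 0.64 (0.56 to 0.71), but 1 WT well held 98.7% of the WT counts. Wells with tubule markers held 92.7% of the Renin-null Nqo1 counts, and without them the level was 2.12 CPM against 13.0 CPM in WT, a log2 ratio of -2.61.

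Members differed in how much of their counts lay in wells with tubule or collecting duct markers. All 7 of 7 proximal tubule markers were above 3 counts in both genotypes, with a sum of 1174 CPM in YFP1 and 725 CPM in YFP2. The share of a member's Renin-null counts in tubule-marker wells was above the 44.5% of all counts for 6 of 10 members (56.5% of 18181 genes), from 51.0% for Prdx2 to 92.7% for Nqo1, and below it for the others, down to 15.7% for Prdx6. Without these wells 4 members were at least 2-fold higher (49.7% of 17005 genes) and 3 at least 2-fold lower (24.1% of genes), Prdx4, Prdx5 and Nqo1. The median of the members was 0.01 and that of all genes 0.97. Prdx6, Txn1, Txnrd1 and Hmox1 were as in all wells above the 2-fold line. The part of tubule cells or their RNA in the other differences was not tested.

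**Figure D2:**
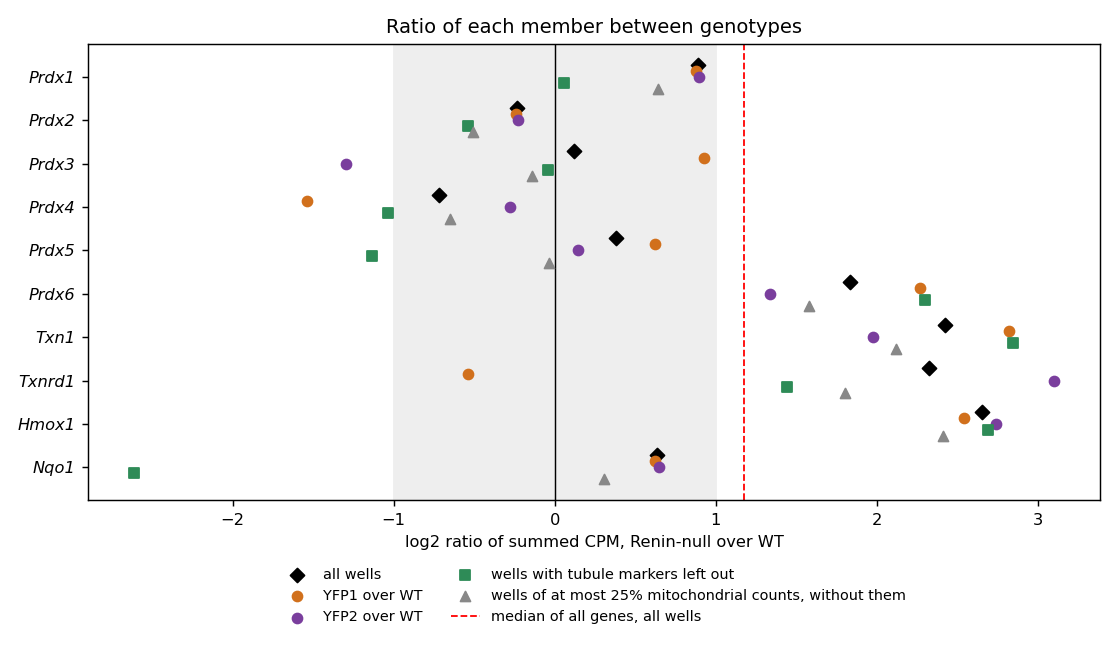
Log2 ratio of summed CPM between genotypes (x axis) for each member (y axis), in all wells and under 4 other choices of wells. The grey band spans 2-fold either way, the dashed line marks the median of all genes (1.17), and Hmox1 is a lower bound. Txn1 and Prdx6 stay right of the band in each choice, while Prdx1, Prdx5 and Nqo1 shift left once tubule-marker wells are left out.

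Compared per length, as transcript shares (TPM) of the summed counts, Prdx1 led in both genotypes, at 502 in WT and 1035 in Renin-null wells. In WT it was followed by Prdx5 at 218 and Prdx2 at 207, Prdx4 at 94.9, Txn1 at 59.4, Prdx3 at 58.97 and Prdx6 at 33.7. In Renin-null wells Txn1 came second at 355, followed by Prdx5 at 317, Prdx2 at 197, Prdx6 at 134, Prdx3 at 71.4 and Prdx4 at 64.3. The order differed between the Renin-null libraries: Txn1 was above Prdx5 in YFP1 (466 and 373) and slightly below it in YFP2 (262 and 269.9), and Prdx3 and Prdx4 stood at 124 and 36.3 in YFP1 and at 26.9 and 87.9 in YFP2. WT has no second library, and neighbours such as Prdx5 and Prdx2 or Txn1 and Prdx3 in WT lie close together. Nqo1 at 9.97 and 17.3, Txnrd1 at 1.34 and 7.49 and Hmox1 at 0 and 0.101 were last in both. Of the peroxiredoxin counts per length, the cytosolic members made up 66.6% in WT and 75.1% in Renin-null wells, the mitochondrial members 24.9% and 21.4%, and Prdx4 of the endoplasmic reticulum 8.52% and 3.53%. The mitochondrial share was 25.8% in YFP1 and 17.2% in YFP2, on either side of WT, and the Prdx4 share 1.88% and 5.09%. Without the WT well richest in Prdx4 its WT share was 4.29%. The 6 peroxiredoxins summed to 1020 CPM (WT) and 1553 CPM (Renin-null).

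The leading peroxiredoxin of a well differed between genotypes, mostly among high mitochondrial wells. By counts, Prdx4 led in 30 of 51 WT wells and in 0 of the 95 Renin-null wells with any peroxiredoxin count. Prdx1 led in 13 WT wells and in 70 Renin-null wells. Within WT, Prdx4 led in 28 of 34 high mitochondrial wells and in 2 of 17 low mitochondrial wells, where Prdx1 led in 9. The high mitochondrial Renin-null wells did not share this pattern: Prdx1 led in 28 of 35 and Prdx4 in 0. Among low mitochondrial Renin-null wells Prdx1 led in 42 of 60 and Prdx4 in 0. Per length, Prdx4 made up 48.9% of the summed peroxiredoxin of the high mitochondrial WT wells and 6.94% of that of the low ones. Both shares rested on 1 well: without the well richest in Prdx1 the first was 76.2%, and without the well richest in Prdx4 the second was 2.28%.

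**Figure D3:**
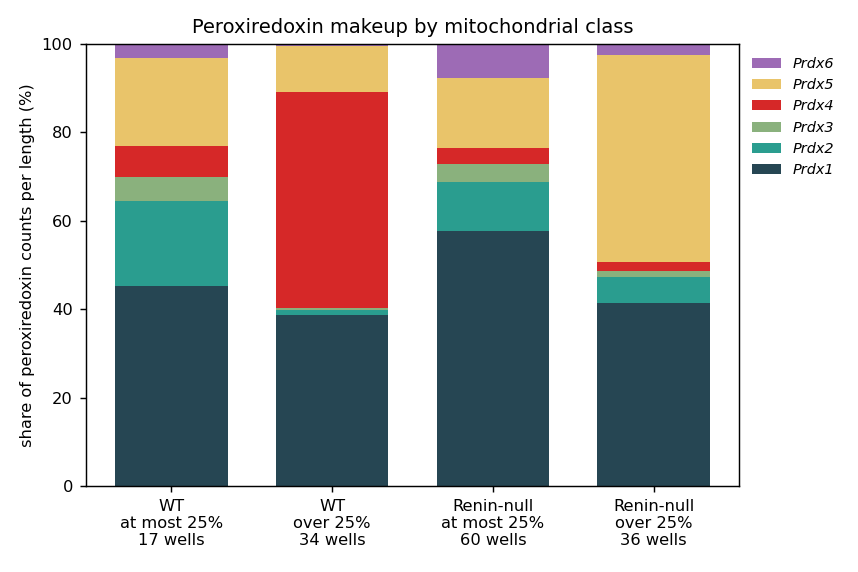
Share of each peroxiredoxin in the summed peroxiredoxin counts per length (y axis, percent) in low and high mitochondrial wells of each genotype. Prdx4 (red) takes 48.9% in high mitochondrial WT wells and 2.01% in high mitochondrial Renin-null wells, where Prdx5 takes 46.8%, with 87.2% of its counts there in 2 wells.

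Most members were lower in wells with a high mitochondrial share, even with the mitochondrial counts left out of the total. In WT, 8 of the 9 members with a ratio were at least 2-fold lower in high than in low mitochondrial wells (59.2% of 14343 genes were), and 1, Prdx4, was at least 2-fold higher (25.7% of genes). Among the 6861 genes of at least 10 CPM in either class, 71.3% were at least 2-fold lower and 19.3% higher. The median of the members was -4.66 on the log2 scale, against -2.18 over all 14343 genes and -4.45 over genes of at least 10 CPM. The class limit decided much of this: with a limit of 10%, 3 members were lower, the median was -0.62 and Txn1 was higher, at 1.25, and for medians over wells 4 were lower with a median of 0. Shares and medians of all genes were not taken under these settings, so the counts of members there have no such comparison. Prdx1 was at 729 CPM in low and 197 CPM in high mitochondrial wells, without mitochondrial counts, with 93.1% of the high mitochondrial counts in 1 well. Prdx2 was at 303 and 6.12 CPM and Txn1 at 58.9 and 1.56 CPM in low and high mitochondrial WT wells. Prdx4 was at 69.8 and 156 CPM, a log2 ratio of 1.16, and its median well was at 3.14 and 103 CPM. With the mitochondrial counts kept in the total its summed levels were 65.4 and 56.3 CPM, a log2 ratio of -0.22. The higher sum of Prdx4 therefore depends on leaving them out. With them kept, its median well was still higher in the high class, at 2.93 CPM in low and 38.3 CPM in high mitochondrial wells. High mitochondrial WT wells were also shallower, with a median of 1212200 counts against 10554708, and lower in smooth muscle markers, 5992 against 17073 CPM without mitochondrial counts, while Ren1 stood at 103343 and 122546 CPM.

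In the Renin-null wells the same comparison depended on the library and on 1 well. With all wells, 2 members were at least 2-fold higher in high mitochondrial wells (28.9% of 17981 genes), Prdx5 at 1.25 and Txnrd1 at 1.78, and 4 were at least 2-fold lower (45.2%), Prdx2, Prdx3, Prdx4 and Prdx6. The median of the members was -0.59, and -0.66 over all genes. One YFP2 well at 25.6%, the nearest above the limit, held 30.6% of the nonmitochondrial counts of the high class and 95.8% of its Prdx4, 93.7% of its Nqo1, 69.9% of its Prdx2, 67.8% of its Txn1 and 49.7% of its Prdx5. A second YFP2 well near the limit, at 26.8%, held a further 37.5% of the Prdx5 of the class. The well at 25.6% was also 1 of the 4 near-identical pairs, with a partner at 12.0%. Without the well at 25.6%, 1 member was at least 2-fold higher (23.3% of genes), Txnrd1 at 1.93, and 7 were lower (57.9%), with a median of -1.94 against -1.72 for all genes. Of the 1123 Txnrd1 counts of the high class, 1 other YFP2 well held 855 (76.1%), and with a limit of 50% the ratio of Txnrd1 was -4.53. YFP1 alone gave a median of -5.68, where all genes had -1.90 and genes of at least 10 CPM -4.64. YFP2 alone gave 0.23, where these medians were -0.46 and -0.59. Hmox1 had 0 counts in the high class, so that its ratio was set by the floor of 3 counts and gives no direction. Over the other 9 members the median was -0.79 in all Renin-null wells, -5.73 in YFP1 and -0.12 in YFP2. Prdx5 then stood at -5.73 in YFP1 and 2.21 in YFP2. In the YFP2 high mitochondrial wells the markers of proximal tubule summed to 2614 CPM and erythroid markers to 5762 CPM without mitochondrial counts, against 40.0 and 12.1 CPM in those of YFP1. Their part in the Prdx5 levels was not tested. The well nearest below the limit was at 20.1% in Renin-null cells. In WT the nearest wells were at 24.7% and 29.2%, and the first of these held 2.50% of the low class's Prdx4.

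**Figure D4:**
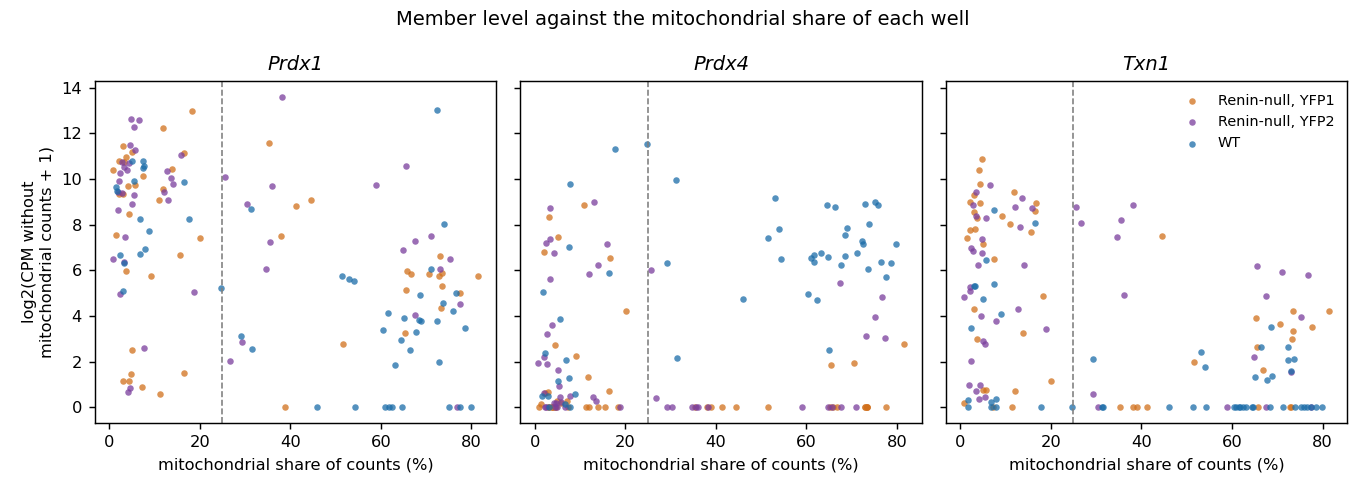
Level of Prdx1, Prdx4 and Txn1 in each well (y axis, log2 of CPM without mitochondrial counts + 1) against the mitochondrial share of its counts (x axis, percent). The dashed line is the limit of 25%. Above it, the 34 WT wells all have Prdx4 counts, with a median of 103 CPM, and Renin-null wells mostly have none.

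Set across genotypes within a class, the members parted. In low mitochondrial wells the median log2 ratio of Renin-null over WT was 0.47 (1.12 over all genes and 0.70 over genes of at least 10 CPM), with Txn1 at 2.12, Txnrd1 at 1.80, Prdx6 at 1.58 and Prdx4 at -0.65. A single WT well held 71.3% of the low class's Prdx4, and without it, a setting chosen after seeing the data, the ratio turned to 1.07 (21.2 CPM in WT against 44.5 CPM, without mitochondrial counts). Likewise 1 WT well held 87.9% of the Prdx6, and without it the ratio was 4.56. In high mitochondrial wells the median was 3.96 over 9 members (2.04 over all genes and 3.55 over genes of at least 10 CPM), with Prdx4 at -2.96. The Renin-null well at 25.6% held 95.8% of the Renin-null Prdx4 counts of this class. Without that well the Renin-null level of Prdx4 was 1.20 CPM instead of 20.1 CPM, against 156 CPM in WT. The libraries parted here: against the same WT wells the median of the 9 was 4.399 in YFP2 and -1.74 in YFP1. No median of all genes was taken for each library in this class, so these values are not read as a result about the members. Across wells of at least 100000 counts, Spearman's rho with the mitochondrial share was -0.53 for Prdx1 and 0.52 for Prdx4 in 48 WT wells, where genes counted in at least 50% of wells had a median of -0.17 and a range from the 5th to the 95th percentile of -0.49 to 0.46. In 83 Renin-null wells it was -0.34 for Prdx1, -0.26 for Txn1 and -0.15 for Prdx4, with a gene median of -0.18. The wells share libraries, and depth itself went with the mitochondrial share (rho of -0.52 in WT and -0.63 in Renin-null wells).

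The counts of Prdx4 in WT wells hardly moved with depth. The 25 shallower WT wells had a median of 40 Prdx4 counts and the 26 deeper wells a median of 50, with a rho between its counts and depth of 0.02, against 0.60 for Prdx1 and 0.58 for Txn1. In Renin-null wells the rho of Prdx4 counts with depth was 0.47. Of the 292 genes outside the mitochondrial genome that were counted in at least 49 WT wells, 35 had a rho at or below that of Prdx4, and the median was 0.51. High mitochondrial WT wells held 3 to 659 Prdx4 counts each (median 44), and low ones a median of 19. The part of depth in the level of Prdx4 was not tested.

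Low counts of several members were linked to the sequencing indexes in WT. A well that shares 1 of its sequencing indexes with the well richest in a gene can receive misassigned reads of it. Nqo1 was counted in 8 of the 14 WT wells that share an index with its top well and in 1 of the 36 that share none. For Prdx3 this was 12 of 15 against 4 of 35 wells, and for Prdx6 8 of 14 against 7 of 36. In these wells the median count was at most 2. Prdx4 was seen in 14 of 14 wells that share an index with its top well and in 34 of 36 that share none, with medians of 28.5 and 48 counts. In YFP1 and YFP2 the shares for Prdx6 were 50.0% and 64.3% with a shared index and 54.5% and 45.5% without. For Prdx3 they were 64.3% and 28.6% with a shared index and 42.4% and 39.4% without. For Nqo1 they were 14.3% and 28.6% with a shared index and 21.2% and 18.2% without. The part of misassigned reads in these counts was not tested.

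Members were only loosely related to each other across cells. Over the 57 Renin-null wells with at least 100000 counts, 1000 genes and at most 25% mitochondrial counts, the highest rho between 2 members was 0.41, for Prdx5 and Nqo1, which were counted together in 17 wells and both lay mostly in tubule-marker wells. Prdx1 and Prdx2 had a rho of 0.31, and Prdx1 and Txn1 of 0.17. The genes most like Prdx1 over these wells were Grb2 (rho 0.52), Map3k13 (0.51) and Slc25a3 (0.51), out of 5255 genes with a median of 0.11. Hmox1, in 4 wells, allowed no such ranking. A median WT well had counts of 5 members and a median Renin-null well of 6.

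Genes that work with the members were described from a list of 76 in 7 role groups, all found in the files. In the Renin-null wells 42 were at least 2-fold higher, 9 at least 2-fold lower and 25 between, with a median log2 ratio of 1.35 against 1.17 for all genes, of which 52.4% were higher and 18.5% lower. With the tubule-marker wells left out 38 were higher and 15 lower, with a median of 1.00 against 0.97 for all genes, of which 49.7% were higher and 24.1% lower. The list as a whole therefore lay near all genes, and the counts by role below are to be read against the same shares. The glutathione and glutaredoxin group was mostly higher, 16 of 20 genes with 0 lower and a median of 2.28. Gclc, which makes the first bond of glutathione, had 6 counts in WT and 10166 in Renin-null wells (25.5 CPM). Gstm1, the most abundant gene of this group in Renin-null wells, was at 216 and 708.1 CPM, and Gstp1, another glutathione transferase, was at 395 and 319 CPM. With the tubule-marker wells left out, 14 of these 20 genes were at least 2-fold higher.

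Among 12 enzymes that remove superoxide and peroxide, 6 were at least 2-fold higher and 0 lower, beside the 52.4% and 18.5% of all genes. These counts were 6 and 2 with the tubule-marker wells left out. Sod3, the extracellular superoxide dismutase, had 0 counts in WT and 49262 in 45 Renin-null wells (124 CPM), of which 1 well held 54.1%. Gpx1, the cytosolic glutathione peroxidase, was at 263 and 1142 CPM, Sod1 at 838 and 1116 CPM, and Gpx8, a peroxidase of the endoplasmic reticulum, at 256 and 145 CPM. Sod3 and Gpx1 are in the study's own list from these cells. Of 11 other genes of the thioredoxin system 6 were at least 2-fold higher. Without the tubule-marker wells 4 of the 11 were higher and 3 lower, with a median of 0.55. In all wells the 1 at least 2-fold lower gene, named after its values were seen, was Txnrd2, the mitochondrial thioredoxin reductase. It had 737 counts in a single WT well and 2 counts in Renin-null wells. Between these limits, Txnip, which binds thioredoxin, was at 260.4 and 340.1 CPM and Txn2, the mitochondrial thioredoxin, at 151 and 79.2 CPM. Nxn was at 0.253 and 10.4 CPM, a log2 ratio of 5.36, with 72.5% of its Renin-null counts in 1 well.

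Of the 7 groups, the genes that control Nrf2 had the most members that were lower, with 2 of 9 at least 2-fold higher, 5 lower and a median of -1.16. Nfe2l2, which encodes Nrf2, was at 41.9 CPM (WT) and 143 CPM (Renin-null), a log2 ratio of 1.77, with 76.5% of its WT counts in 1 well. Keap1, which targets Nrf2 for breakdown, was at 10.4 and 0.446 CPM, and Sqstm1, which binds Keap1, at 178 and 96.2 CPM. Keap1 was counted in 9 of 51 WT wells, 1 of which held 57.6% of its WT counts, and in 14 of 96 Renin-null wells. With the tubule-marker wells left out 4 of the 9 genes of this group were higher and 4 lower, with a median of 0.51. Of 6 genes of heme and iron, 2 were higher and 1 lower: Fth1, the ferritin heavy chain, was at 882 and 2312 CPM, Hmox2, the constitutive heme oxygenase, at 224 and 48.8 CPM, and the iron exporter Slc40a1 had 1 count in WT and 4910 in Renin-null wells (log2 ratio 11.25, 8.77 to 16.55). Without the tubule-marker wells 2 of these 6 genes were higher and 2 lower, with a median of -0.26.

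In the remaining groups, 4 of 9 genes of NADPH supply and of quinone and aldehyde enzymes were higher and 1 lower. These counts were 5 and 2 with the tubule-marker wells left out. Idh1, a cytosolic source of NADPH, was at 10.6 and 139 CPM. Me1, another such source, had 0 counts in WT and 5691 in 15 Renin-null wells, and Pgd, of the pentose phosphate pathway, stood at 15.2 and 3.33 CPM. Of 9 genes of protein repair and metal binding 6 were higher and 1 lower, with Mt1, a metallothionein, at 41.9 and 375 CPM, Selenow at 239 and 415 CPM, and Msrb2, a mitochondrial methionine sulfoxide reductase, at 103 and 4.11 CPM. A single well held 97.9% of the Renin-null counts of Msrb2. Without the tubule-marker wells 3 of the 9 genes of protein repair and metal binding were higher and 1 lower, with a median of 0.82.

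**Figure D5:**
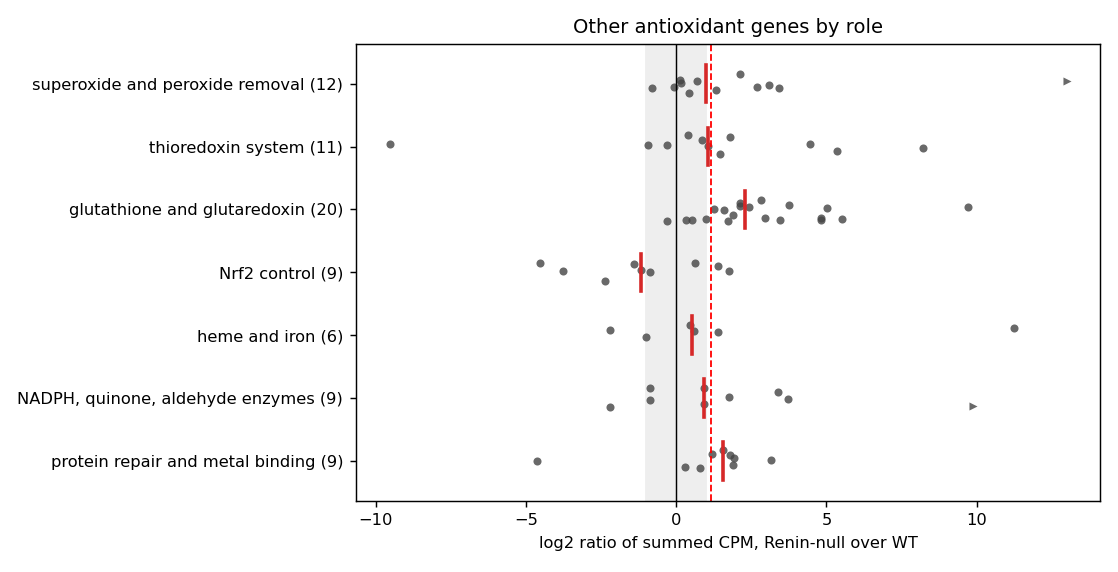
Log2 ratio of summed CPM, Renin-null over WT (x axis), for 76 other antioxidant genes in 7 role groups (y axis, number of genes in brackets). Points are genes, triangles lower bounds for genes at 0 in WT, red bars group medians, the grey band 2-fold either way and the dashed line the median of all genes (1.17). The glutathione group has a median of 2.28 and the Nrf2 control group of -1.16.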

How the data were processed

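Single-cell libraries were prepared with SMART-Seq v4 and Nextera XT, without molecular identifiers. Per the labels, the authors used FastQC 0.11.5, Trimmomatic 0.39 and Salmon 0.11.2 with GRCm38.p6, and the deposited values are expected counts per gene and well, scaled by transcript length. They were rounded to whole numbers. The 147 wells were taken as 51 WT and 96 Renin-null wells from their labels, and none was left out of the main values. Depth ran from 3628 to 17124854 counts, and intervals cover counting error only.

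Counts were summed over the wells of a genotype or class, scaled to CPM, and compared as log2 ratios with exact 95% conditional intervals. Sums of 0 were set to a floor of 3 counts, and genes at or under 3 counts on both sides got no ratio. Shares have exact Clopper-Pearson intervals. Levels per length used the median length of each gene's basic coding transcripts, or of its other basic transcripts where it has none, in the GENCODE annotation of GRCm38. High mitochondrial wells had over 25% of counts in the 13 mitochondrially encoded genes, a limit the study states for another of its experiments. Wells were called near-identical at a Pearson r of at least 0.95. No doublet caller was run, since the wells had been inspected under a microscope. Python 3.11.15 (pandas 2.3.3, scipy 1.17.1) and R 4.3.3 (edgeR 4.0.16, sctransform 0.4.2) were used. The ratio step was tested on Poisson counts simulated for each genotype sum. These hold no spread between wells, so the test does not cover sums that rest on 1 well.

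The members, the 76 related genes and the 12 marker lists were chosen with earlier results of these data known. From each role group the most abundant gene and those with the largest and smallest ratio among genes of at least 10 CPM are named, with near-identical copies, the 3 genes most like Prdx1 and the most abundant gene of most marker lists (some marker genes are not reported here). Alternatives covered the scaling, the pseudocount, thinning to 62000 counts, limits on wells, single libraries and near-identical wells, and those on mitochondrial classes, tubule-marker wells, single wells and the exclusion of Hmox1 were chosen after seeing the data.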

Additional observations from a re-analysis of the deposited data

How the results depend on the processing

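With 1 sample a genotype, capture and genotype cannot be told apart, depth limits shares of wells with a count, and a sum can rest on 1 well. No paired analysis was possible because each genotype is 1 sample and its values come from no test. Over 14 alternatives, Prdx6 (1.11 to 4.39) and Txn1 (1.72 to 6.96) kept their sign and at least a 2-fold ratio in 14, and Prdx1 kept its sign in 14 (0.06 to 2.61) but reached 2-fold in 5. The causes of the moves below were not tested.

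The genotype median of 0.76 was 0.0586 with TMM, 1.45 with the mean of CPM over wells, 1.59 with SCTransform, 1.53 after thinning, 0.48 with limits on wells, 2.03 without the highest well of each genotype, 0.77 with YFP2, 0.78 with near-identical wells once, 0.47 in low and 3.96 in high mitochondrial wells, and 0.00706 without tubule-marker wells. The 4 higher members became 8 with SCTransform and in high mitochondrial wells. The 0 lower members became 1 with TMM, with the mean of CPM, with the mean of log2 values, with SCTransform, after thinning, with YFP1, with YFP2 and in high mitochondrial wells, and 3 without tubule-marker wells. The median of all genes was 1.29 for genes of at least 100 counts and 0.86 for genes of at least 10 CPM, of which 47.8% were at least 2-fold higher. Txnrd1 was at -0.54 with YFP1, and Prdx4 in low mitochondrial wells at 1.07 without its highest WT well. In high mitochondrial wells the median of 3.96 was -1.74 with YFP1 alone.

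Between mitochondrial classes of WT, the median of -4.66 was -6.04 over all counts, -0.62 with a limit of 10%, 0 for medians over wells and -2.605 without the highest wells. The 1 higher member became 0 over all counts and 2 without the highest wells, and the 8 lower became 3 with the 10% limit and 4 for medians. Shares of all genes were not taken for the other limits or for medians over wells, in either genotype. Prdx4 was at -0.22 over all counts, Txn1 at 1.25 with the 10% limit and Nqo1 at 1.45 without the highest wells.

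In Renin-null wells the median of -0.59 was -1.52 over all counts, 0.88 with a limit of 10%, -4.90 with 50%, -0.35 for medians over wells, -0.59 in wells of at least 100000 counts and with near-identical wells once, -1.57 without the highest wells, -5.68 in YFP1, 0.23 in YFP2 and -1.94 without the well nearest the limit. The 2 higher members became 0 over all counts, 5 with 10%, and 1 with 50%, for medians, in YFP1 and without the nearest well. Hmox1, with 0 counts above the limit, is the 1 higher member with 50% and in YFP1 through the floor alone, so that 0 of the other 9 were higher there. The 4 lower became 1 with 10% and in YFP2, 9 with 50% and in YFP1, and 7 without the highest wells or the nearest well. With the 10% limit Prdx2 was at 0.69, Prdx3 at 1.06 and Prdx4 at 1.11. With 50%, Prdx5 was at -2.07 and Txnrd1 at -4.53, in YFP1 at -5.73 and -3.86, and Txnrd1 was at -0.17 for medians. Members counted in at least 50% of wells, 4 in WT and 6 in Renin-null wells, became 1 and 2 at 10 CPM and after thinning.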
